A study of Mus musculus with 4 samples.

Results

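The Rab GTPases are the members described here: every gene of the deposited count tables whose symbol is Rab, a number and at most 1 letter and 1 further digit. The rule found 59 genes of 18143, all protein coding in GENCODE on GRCm38, and every one had at least 1 molecule counted. They were followed in spiral ganglion neurons of the mouse cochlea, in the 5 populations named by the authors' deposited annotation (the type I subtypes IA, IB and IC, type II, and a population the authors call putative). By role the family was divided into 8 Rabs of synaptic vesicles and regulated exocytosis, 16 of early and recycling endosomes, 11 of late endosomes, lysosomes and related organelles, 18 of the secretory pathway from endoplasmic reticulum through Golgi to plasma membrane, and 6 others.

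Rab proteins are small GTPases that mark membranes: loaded with GTP they sit on a vesicle or organelle and recruit effectors that move, tether or fuse it, and after GTP hydrolysis they are extracted into the cytosol and used again. Rab3 and Rab27 proteins work on synaptic vesicles and secretory granules, Rab5, Rab4 and Rab11 on uptake and recycling, Rab7 and Rab9 on the path to lysosomes, and Rab1, Rab2 and Rab6 on the path through the Golgi. Spiral ganglion neurons carry sound signals from cochlear hair cells to the brainstem; type I neurons contact inner hair cells and type II neurons contact outer hair cells.

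The study profiled native cochlear neurons from 4 wild-type male CBA/CaJ mice aged 9 weeks, with no treatment. Each library is 1 mouse, from tissue of the modiolus of its cochleae dissociated to single cells and captured in droplets, so that the 4 mice are the replicates and every population was compared within the same animals. The annotation covers 6713 neurons: 2384 of subtype IA, 1625 of IB, 2104 of IC, 95 of type II and 505 putative. Unique molecular identifiers (UMIs, 1 per captured transcript) were summed for each mouse and population, which gave 20 sums of 131668 to 10156321 UMIs; the smallest is the type II sum of mouse 2, with 15 cells. Levels are given as UMIs per 1000000 UMIs of a sum (CPM); because molecules are tagged at their end, they were not scaled by transcript length. In all, the 59 genes took 410431 of 86572150 UMIs (0.474%).

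Type II neurons carried the markers of their name. The summed level of 6 type II markers was 7316 CPM in type II (SD 2571, n = 4), of which Myl1 gave 5185 CPM and peripherin (Prph) 475 CPM, and the means of the other populations lay between 50.03 and 108 CPM. The summed level of 4 satellite glia markers (Fabp7, Apoe, Sox10, Kcnj10; all 4 detected in every population) was 8086 CPM ± 1942 in type II (5301 to 9710.3 over mice) and 7631 CPM ± 391 in putative neurons (7222 to 8118), against means of 977 to 1080.5 CPM in the type I populations. The difference lay in Apoe (7365 and 7003 CPM in type II and putative neurons against 907 to 1000.3 in the type I means) and Fabp7 (655 and 562 against 13.8 to 16.2). Sox10 (28.9 and 33.9 against 27.3 to 30.3) and Kcnj10 (36.2 and 31.1 against 29.0 to 36.4) were near their type I means, and the summed level of 5 Schwann cell markers was 2789 and 2730 CPM against 2873 to 3265. Every contrast of type II or putative neurons therefore moves together with Apoe and Fabp7; their part in it was not tested beyond leaving out cells with 3 or more Fabp7 UMIs, which lowered the glial sum to 1149.6 CPM ± 211 in type II and 1852 CPM ± 255 in putative neurons. The 4 fibroblast markers also differed, with 368 CPM ± 144 in putative neurons and 102 to 106 CPM in the means of the type I populations. Across mice, 26 cell barcodes occur in more than 1 library.

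The 250 bases before the start listed by RefSeq are shown for 3 members whose levels differed between populations: Rab33a, called in every comparison, Rab5a, highest in IA among type I neurons, and Rab31, highest there in IC. They come from RefSeq on GRCm38.p6, which lists a start for 48 of the 59 members, and were picked among windows that hold no GENCODE exon. Rab15, with the widest gradient, is not shown because the window before its outermost RefSeq start does not meet that condition. Capitals mark matches, on either strand, to a GC box (GGGCGG), an E-box (CANNTG) or a RUNX core (TGTGGT); Rab33a lies on chrX:48519035-48519284, plus strand, Rab5a on chr17:53478984-53479233, plus strand, and Rab31 on chr17:65772753-65773002, minus strand.
Rab33a: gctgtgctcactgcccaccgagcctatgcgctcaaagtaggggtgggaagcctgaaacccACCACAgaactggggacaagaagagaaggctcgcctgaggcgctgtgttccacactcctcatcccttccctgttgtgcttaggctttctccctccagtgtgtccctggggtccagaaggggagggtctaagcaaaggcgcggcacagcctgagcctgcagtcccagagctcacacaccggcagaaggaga
Rab5a: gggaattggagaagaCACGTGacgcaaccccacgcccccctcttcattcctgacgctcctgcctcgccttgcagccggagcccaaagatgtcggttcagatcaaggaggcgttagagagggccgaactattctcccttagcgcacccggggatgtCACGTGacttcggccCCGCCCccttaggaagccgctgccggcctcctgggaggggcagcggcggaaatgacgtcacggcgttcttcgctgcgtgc
Rab31: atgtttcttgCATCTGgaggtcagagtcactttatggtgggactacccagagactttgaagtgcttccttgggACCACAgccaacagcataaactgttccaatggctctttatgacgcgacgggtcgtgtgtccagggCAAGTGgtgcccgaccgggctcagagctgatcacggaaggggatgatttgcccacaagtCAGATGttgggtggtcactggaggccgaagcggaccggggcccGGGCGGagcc
The Rab33a window holds 1 RUNX core, neither of the other marked motifs, and a GC content of 60.4%. The Rab5a window holds 1 GC box and 2 E-boxes at a GC content of 64%, and the Rab31 window 1 GC box, 3 E-boxes and 1 RUNX core at 57.6%. Of 32851 such windows in the mouse, 32.7% hold a GC box, 66.2% an E-box and 14.0% a RUNX core. Letters searched but not marked include TGACG, which occurs 4 times in Rab5a (overlapping matches on both strands counted), once in Rab31 and not in Rab33a (17.8% of all windows hold it). The CCAAT box occurs once each in Rab5a and Rab31 (33.8%), and none of the 3 windows holds TATAAA (12.4%). These matches describe letters and were not related to the levels that follow.

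Synaptic Rab3a alone was the most abundant member of the family. Its share of the summed Rab level was 20.0% in IA, 22.4% in IB, 24.0% in IC, 16.8% in type II and 19.6% in putative neurons, and it ranked first in each. The Golgi Rabs Rab6a and Rab6b and the endoplasmic reticulum to Golgi Rab2a took the next 3 ranks in every population, with Rab2a above Rab6b only in type II. Between 13 and 14 members reached 100 CPM in each population. The family's summed level was 4704 CPM ± 168 in IA, 4775 ± 128 in IB, 4759 ± 147 in IC, 4507 ± 417 in type II and 4264 ± 244 in putative neurons, so that the 3 type I populations differed by less than the spread over mice.

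The division by role was less even. Synaptic and exocytic Rabs summed to 1020.9 CPM ± 87.0 in IA, 1146 ± 88.2 in IB and 1224 ± 87.7 in IC, against 840 ± 227 in type II and 921 ± 128 in putative neurons. Secretory pathway Rabs ran the other way within type I, with 2010 ± 53.6 in IA, 1956 ± 28.6 in IB and 1869 ± 32.1 in IC. Early and recycling endosome Rabs summed to means of 1022 to 1134 CPM and late endosome and lysosome Rabs to 455 to 522 CPM. These sums are dominated by their most abundant members and carry no test.

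**Figure D1:**
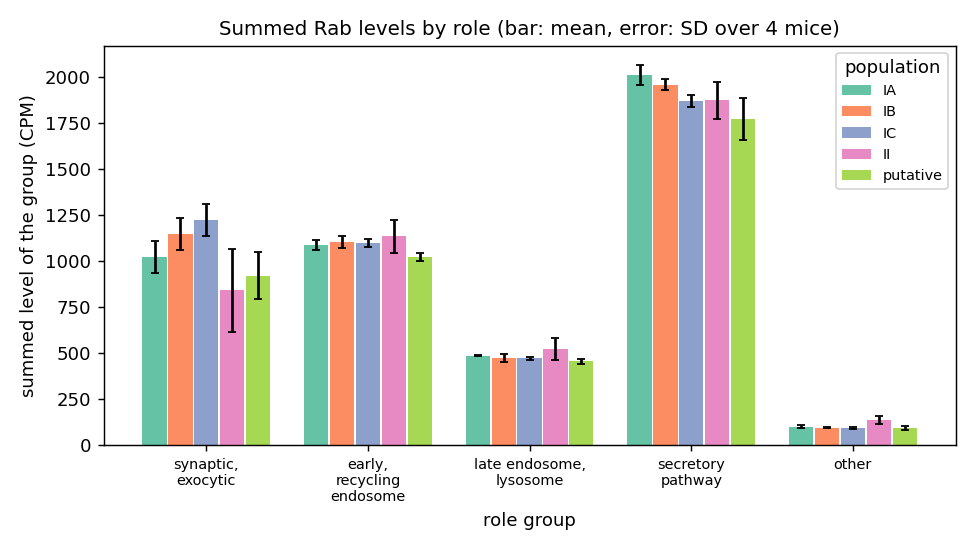
Summed level of each role group (vertical axis, CPM) in the 5 populations; bars are means and error bars the SD over 4 mice. The synaptic and exocytic group is highest in IC (1224 CPM), while the secretory group is highest in IA (2010 CPM).

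All 5 comparisons were tested with edgeR's quasi-likelihood test on the sums, with the mouse as a block and Benjamini-Hochberg adjustment over 13005 genes; a gene is called at an adjusted p under 0.05. Of the 59 members 50 passed the filter on low counts. Population labels were drawn by the authors from these same cells, so a call describes how the annotated populations differ and is no independent test of the annotation. Between types IA and IC, 22 of 50 members were called (13 higher in IA, 9 lower; 44%), where 32.3% of all genes were called (16.3% higher, 16.0% lower), and the median log2 difference was 0.03 against -0.01 over all genes. Between IA and IB, 9 members were called (7 higher, 2 lower; 18%) against 15.6% of all genes (7.40% higher, 8.19% lower), and between IB and IC 6 were called (4 higher, 2 lower; 12%) against 11.8% (6.37% and 5.47%). In type II against the mean of the 3 type I populations, 13 members were called (8 higher, 5 lower; 26%) against 23.4% of all genes (11.9% higher, 11.5% lower; 15.2% and 9.36% with DESeq2). In putative neurons against the mean of the other 4 populations, 7 were called (3 higher, 4 lower; 14%) against 13.7% (10.2% and 3.50%). The members' share lay within 3 percentage points of the background in every comparison except IA against IC, and no share was tested against its background.

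Most called differences were small. Between IA and IC, 11 of the 13 members called higher and 6 of the 9 called lower differed by under 0.5 on the log2 scale, and only Rab15 and Rab37 reached 1. In all, 24 members were called in at least 1 type I pair and 17 in no comparison. The shares of all genes in these sets were not computed, so the counts have no background beside them. Rab33a was called in all 5 comparisons. Mean levels of the 50 tested members fell in the order IA, IB, IC for 18 genes and in the order IC, IB, IA for 14. These orders rank means only, and some of the genes were called in no type I pair, such as Rab1b. The share of all genes with either order was not computed.

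**Figure D2:**
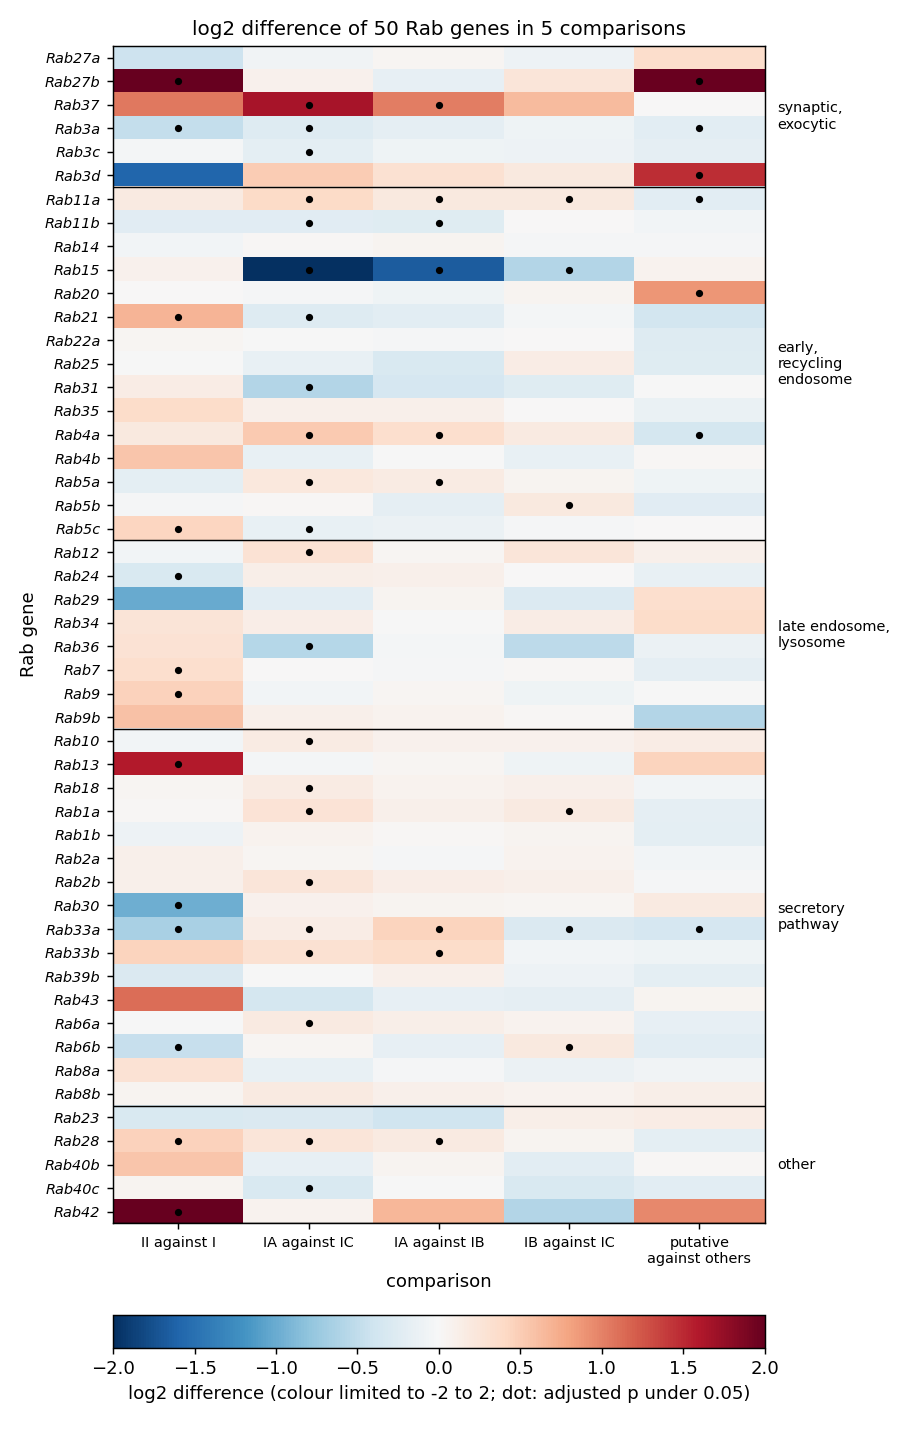
Log2 difference of the 50 tested Rab genes (rows, by role group) in 5 comparisons (columns); red is higher and blue lower in the first-named population, and a dot marks an adjusted p under 0.05. Rab15 stands out as blue in the 3 type I columns, and Rab27b, Rab13 and Rab42 as red in the type II column.

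Rab3a, the main Rab of synaptic vesicles, was lowest among type I neurons in IA and was lower in type II than in type I. It lies on chr8:70754679-70758677 of GRCm38. In mice 1 to 4 its level was 1001, 998.6, 963 and 807 CPM in IA, 1102, 1129, 1108 and 931 in IB, and 1159, 1217, 1175 and 1016 in IC. Mouse 4 was lowest in each type I population, and within each of the 4 mice the order was IA, IB, IC. The log2 difference of IA from IC was -0.26 ± 0.08 (SE; adjusted p = 0.00989), while neither neighbouring pair was called. Type II read 1009.7, 577, 753 and 691 CPM, lower than the type I mean in 4 of 4 mice but overlapping type I through mouse 1 (log2 -0.47 ± 0.09, adjusted p = 4.13e-05). With type II restricted to its 58 cells that hold a Prph UMI, the difference grew to -0.84, at a glial sum of 12733 CPM ± 710.5. The summed level of 7 type I markers in type II ran from 1336 to 5870 CPM over mice (Calb2, 304 to 2908 CPM), and in mouse 1 10 of 23 type II cells, with 145092 of 546679 UMIs, hold Prph. Their part in the result was not tested. Putative neurons read 900.3, 918, 877 and 642 CPM (log2 -0.21 ± 0.07, adjusted p = 0.0394), a call that was lost without the cells rich in Fabp7 (adjusted p = 0.221), without mouse 1 (0.0705), 3 (0.133) or 4 (0.133), and without the replicate block (0.252). The IA to IC call was likewise lost without mouse 2 or 3 and without the replicate block. Mpv17l2, which overlaps Rab3a on the opposite strand, read 23.5 to 25.0 CPM in the type I means and 43.7 in type II.

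The other Rab3 genes sat far below Rab3a. Rab3c, a close relative on synaptic vesicles, read 64.8, 50.8, 68.8 and 69.1 CPM in IA, 67.8, 64.9, 65.8 and 70.0 in IB and 68.7, 75.6, 72.2 and 72.9 in IC, slightly lower in IA than in IC (log2 -0.20 ± 0.07, adjusted p = 0.0307) with overlapping ranges. In type II it scattered from 15.2 to 102 CPM, with 14.6% of its 89 UMIs in 1 cell, and was not called. In the type II cells with a Prph UMI it read 20.9 CPM ± 16.0 from 14 UMIs. Rab3d, known from secretory granules of exocrine and other cells, read 1.49 to 3.52 CPM over the type I sums. In putative neurons it read 6.97, 4.37, 3.77 and 4.28 CPM from 20 UMIs, above every other sum (log2 1.47 ± 0.45, adjusted p = 0.0181). That contrast includes type II, where Rab3d had a single UMI. The call was lost without mouse 1, 2 or 4 (adjusted p 0.051 to 0.115). It stood without the cells rich in Fabp7 (log2 2.60, adjusted p = 0.0157). In that setting type II held 0 Rab3d UMIs, and the mean of putative neurons was 4.61 CPM, against 4.85 with all cells. The type I means were 1.85 to 2.70 CPM there, so the larger log2 difference did not come with a higher level in putative neurons. Rab3b had 49 UMIs in all and was not tested; type II read 0, 7.59, 15.4 and 4.54 CPM from 8 UMIs, and no other sum exceeded 1.25 CPM. The 0 of mouse 1 allows a level of up to 5.49 CPM (3 UMIs, counting error only).

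Rab27 proteins attach secretory granules and lysosome-related organelles to the actin cytoskeleton and plasma membrane. Rab27b was higher in type II and in putative neurons, from few molecules and not in every mouse. It read 0.579 to 5.22 CPM over the type I sums, with mice 2 and 4 above mice 1 and 3 in each type I population. Type II read 18.3, 0, 12.8 and 13.6 CPM from 18 UMIs in 12 cells (log2 2.80 ± 0.53, adjusted p = 4.44e-05, higher in 3 of 4 mice). The 0 of mouse 2, the smallest sum, allows up to 22.8 CPM. In the type II cells with a Prph UMI only 4 UMIs remained, and the difference of 1.39 was not called (adjusted p = 0.247); without mouse 1 it was 1.94 (0.0294). Putative neurons read 1.39, 21.2, 13.2 and 26.8 CPM from 74 UMIs in 43 cells (log2 1.98 ± 0.27, adjusted p = 1.2e-07). The level was again higher in 3 of 4 mice, mouse 1 staying at the type I level. A single cell held 13.5% of these 74 UMIs, and in type II 1 cell held 22.2% of the 18. Without the cells rich in Fabp7 the log2 difference was 3.16 in type II and 1.99 in putative neurons. Rab27a, its paralog, had means of 0.915 to 2.36 CPM and was called nowhere; its largest count was 61 UMIs, in IC.

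Rab37, described in secretory granules of several cell types, was a low-level gene highest in IA among type I neurons. It read 7.23, 6.01, 6.66 and 5.83 CPM in IA, 3.21, 3.71, 2.82 and 2.87 in IB and 2.80, 2.01, 1.12 and 2.61 in IC. No IA value overlapped IB or IC: the log2 difference was 1.64 ± 0.21 from IC (adjusted p = 1.08e-08) and 1.02 ± 0.21 from IB (adjusted p = 0.000255). Type II read 7.32, 0, 10.2 and 9.09 CPM from 10 UMIs and was not called, and putative neurons read 2.79, 4.99, 5.66 and 2.14. Rab26, which links synaptic vesicles to autophagy, had 96 UMIs and was not tested. It overlaps Traf7 on the same strand, so its molecules cannot be assigned to it with certainty.

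**Figure D3:**
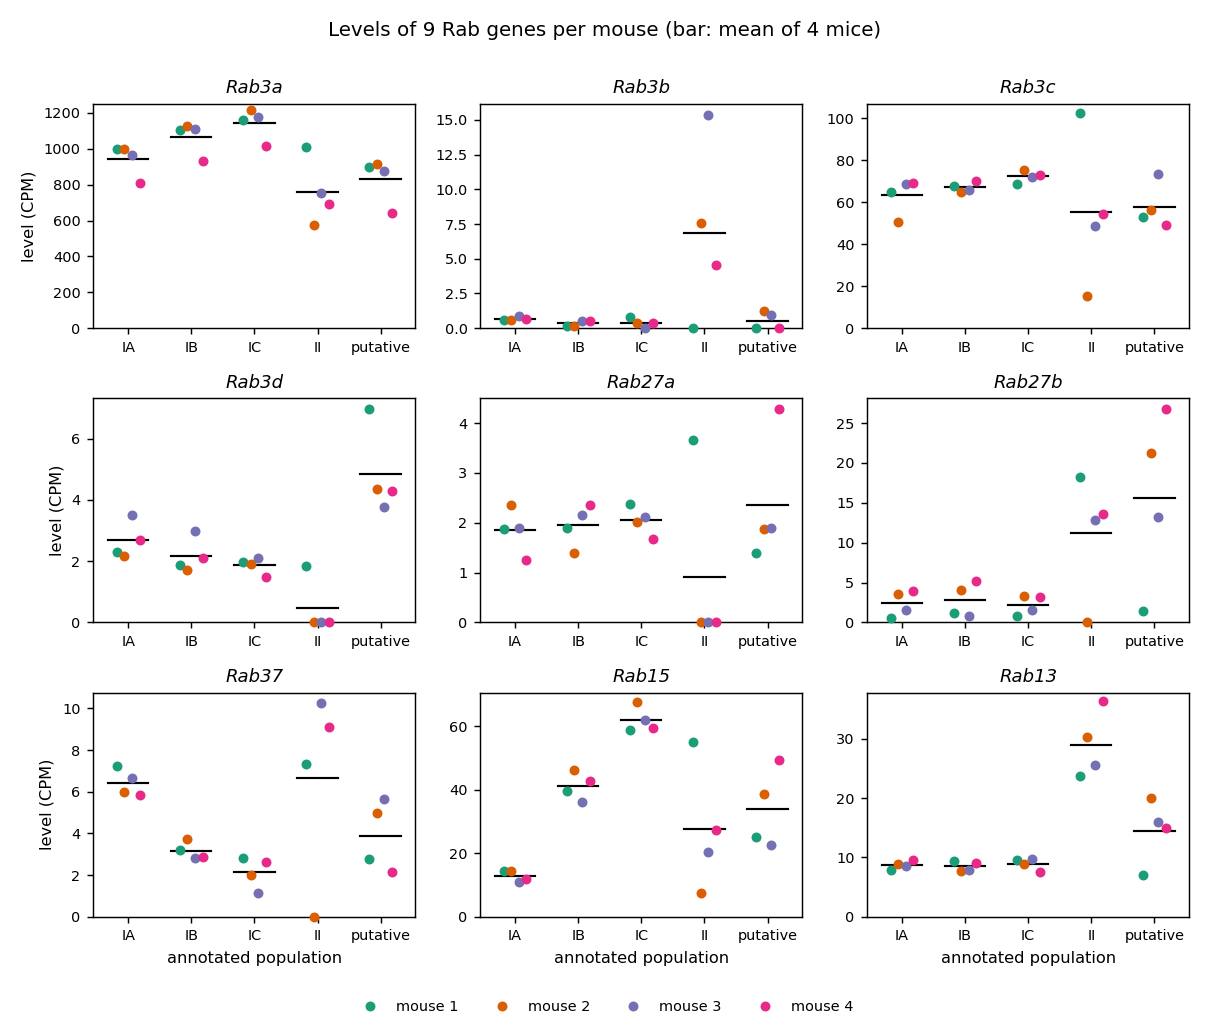
Level in CPM (vertical axes, each from 0) of 9 Rab genes in the 5 populations; each point is a mouse and each bar the mean of 4. Rab15 climbs from IA (12.8 CPM) to IC (61.9 CPM), Rab37 is highest among type I neurons in IA, and the Rab27b points of type II and putative neurons spread from 0 to 26.8 CPM.

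Genes listed as Rab3 and Rab27 effectors, among them short RIM relatives that lack the Rab3-binding domain, differed between populations in both directions. Of 14 genes on that list 8 were tested; 4 were called in type II against type I (3 higher, 1 lower; 23.4% of all genes were called), 5 between IA and IC (2 higher, 3 lower; 32.3% of all genes), 4 between IA and IB (2 in each direction; 15.6%), 4 between IB and IC (1 higher, 3 lower; 11.8%) and 3 in putative neurons (all lower; 13.7%). Rph3a encodes rabphilin, which binds Rab3 on synaptic vesicles. It read 20.4 CPM ± 1.97 in IA, 27.7 ± 2.42 in IB, 124 ± 17.1 in IC, 54.4 ± 12.8 in putative neurons and 375, 456, 464 and 532 CPM in type II. Type II lay above every other sum (log2 3.32 ± 0.11, adjusted p = 4.79e-30). Type IC lay above both other type I populations, with IA lower by 2.56 ± 0.08 (adjusted p = 7.99e-32) and IB by 2.13 ± 0.08 (1.25e-27); IA also differed from IB by -0.43 ± 0.11 (0.00322).

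Rims3, a short relative of the active-zone RIM proteins that lacks their Rab3-binding domain, followed the same order except that IA and IB overlapped. It read 34.2 CPM ± 3.22 in IA, 37.9 ± 2.59 in IB, 81.8 ± 2.01 in IC and 135 ± 21.0 in type II. Its log2 difference was 1.43 ± 0.14 in type II (adjusted p = 3.49e-12), -1.26 ± 0.06 between IA and IC (1.31e-22) and -1.10 ± 0.07 between IB and IC. Rims4, a similar short form, rose from 14.5 CPM ± 1.36 in IA to 20.5 ± 1.94 in IB and 25.6 ± 1.52 in IC. The granule tether Sytl2 ran opposite, with 146 CPM ± 7.33 in IA, 121 ± 5.42 in IB and 86.7 ± 3.96 in IC and no overlap between them, as did Myrip, a Rab27 and myosin linker, between IA and IB (15.8 against 11.8 CPM, log2 0.41 ± 0.13). The Myrip call was lost without mouse 2, 3 or 4, and with DESeq2.

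Among all 82 regulators and effectors in the tables, 73 were tested. In type II 15 were called (5 higher, 10 lower; 20.5%, against 23.4% of all genes), and between IA and IC 29 (18 higher, 11 lower; 39.7% against 32.3%). Each of the other type I pairs had 15 called (20.5%, against 15.6% of all genes for IA and IB and 11.8% for IB and IC), and putative neurons 6 (none higher, 6 lower; 8.22% against 13.7%). The Rab5 exchange factor gene Rin2 read 22.0 to 53.2 CPM in type II and at most 8.97 CPM in any type I sum (log2 2.39 ± 0.29, adjusted p = 2.67e-09), and was higher in IA than in IC (0.84 ± 0.16). Rabgef1, which encodes another Rab5 exchange factor, rabex-5, was lower in type II, with 13.6 to 22.8 CPM against 42.5 to 58.8 CPM in type I (log2 -1.54 ± 0.24, adjusted p = 1.22e-06). Rilp, the Rab7 effector that binds the dynein motor complex, was lower in IA (2.99 CPM ± 0.433) than in IC (6.76 ± 0.490; log2 -1.12 ± 0.18). In putative neurons Rph3a (log2 -0.47), Rims3 (-0.45), Tbc1d9 (-0.30) and Sytl2 (-0.29) were lower than the mean of the other 4 populations, a mean that contains type II; all 4 of these calls were lost without mouse 3 (adjusted p 0.0571 to 0.121), and without the cells rich in Fabp7 those of Tbc1d9 and Sytl2 were lost.

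**Figure D4:**
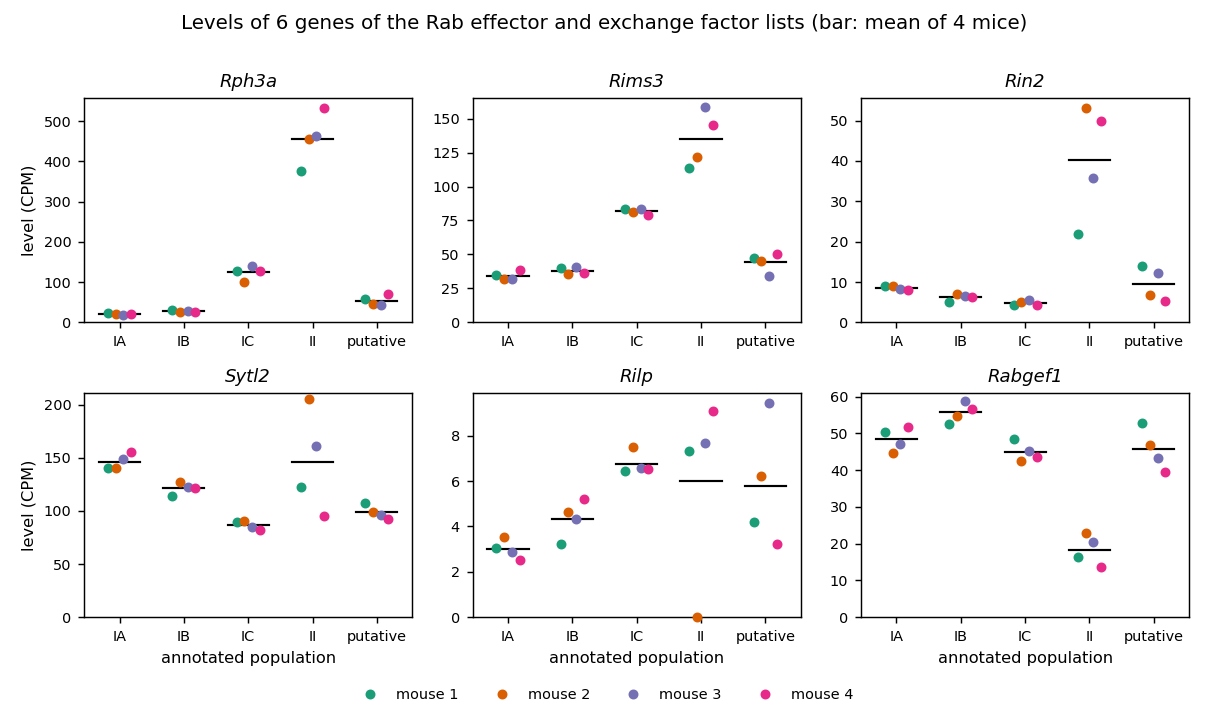
Level in CPM (vertical axes, each from 0) of 6 genes from the lists of Rab effectors and exchange factors in the 5 populations; each point is a mouse and each bar the mean of 4. Rph3a and Rims3 are highest in type II and next in IC, while Rabgef1 is lowest in type II (18.3 CPM).

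Among early and recycling endosome Rabs, Rab15 showed the widest gradient of the family over type I neurons. Rab15 acts between early and recycling endosomes. It spans chr12:76797960-76822908 on the minus strand. Its level was 14.3, 14.4, 10.8 and 11.9 CPM in IA, 39.5, 46.2, 36.1 and 42.8 in IB and 58.7, 67.5, 61.9 and 59.5 in IC. The 3 populations did not overlap: IA was lower than IC by 2.24 ± 0.09 on the log2 scale (adjusted p = 5.44e-26) and lower than IB by 1.66 ± 0.11 (7.33e-18), and IB was lower than IC by 0.59 ± 0.08 (1.28e-07). Type II read 54.9, 7.59, 20.5 and 27.3 CPM, a spread in which 22.2% of the 45 UMIs came from 1 cell. Putative neurons read 25.1, 38.7, 22.6 and 49.2, and neither was called. In the type II cells with a Prph UMI 5 Rab15 UMIs remained, at 8.92 CPM ± 8.30. Fntb overlaps Rab15 on the opposite strand and read 24.6 CPM in IA, 27.6 in IB and 30.7 in IC.

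Rab4a and Rab11a, of the recycling routes, ran the other way. Rab4a, of the fast recycling route, read 61.8, 65.4, 70.2 and 59.1 CPM in IA, 51.5, 54.9, 53.1 and 44.1 in IB and 46.6, 48.5, 44.7 and 42.0 in IC; IA lay above both (log2 0.52 ± 0.06 against IC, adjusted p = 1.89e-09; 0.34 ± 0.07 against IB). Rab11a, of the slower route through recycling endosomes, fell in the same order in every mouse, with 216 CPM ± 6.08, 189 ± 6.97 and 167 ± 3.55 and no overlap. Its paralog Rab11b did the reverse: 189 CPM ± 10.5 in IA against 223 ± 14.3 in IB and 225 ± 8.50 in IC (log2 -0.23 ± 0.05 in both pairs). Rab4a and Rab11a were also lower in putative neurons than in the mean of the others (log2 -0.35 ± 0.12 and -0.22 ± 0.07), each in 3 of 4 mice; the first call was lost without any 1 of the mice, the second without mouse 1, 2 or 3, and both without the replicate block.

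Rab5 proteins set up early endosomes, and the calls of the 3 paralogs differed. Rab5a was higher in IA (153 CPM ± 7.52) than in IC (134 ± 5.33; log2 0.21 ± 0.05, adjusted p = 0.000534) and in IB (log2 0.16 ± 0.05). Rab5b was higher in IB than in IC (0.20 ± 0.07, adjusted p = 0.0372), a call that stood in 3 of 10 alternative fits. Rab5c was lower in IA than in IC (-0.15 ± 0.06) and, in type II, read 78.7, 106, 87.1 and 90.9 CPM, above every type I value (52.5 to 69.9; log2 0.44 ± 0.15, adjusted p = 0.0234). Without the cells rich in Fabp7 the type II difference of Rab5c was 0.26 and not called (adjusted p = 0.387). Rab31, a Rab of Golgi to endosome traffic, was lower in IA (7.79 CPM ± 1.49) than in IC (12.0 ± 1.18; log2 -0.58 ± 0.14, adjusted p = 0.000726).

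Rab21, which handles integrins on early endosomes, was lower in IA than in IC (log2 -0.26 ± 0.10, adjusted p = 0.0454), a call that stood in 2 of 9 alternative fits. It was higher in type II (0.68 ± 0.26, adjusted p = 0.0482, 36 UMIs), a call lost at a similar size without the cells rich in Fabp7 (0.74, adjusted p = 0.0937) and among the Prph-positive cells (0.64, adjusted p = 0.198). Rab20, linked to phagosome maturation, read 13.9, 28.7, 20.7 and 27.8 CPM in putative neurons and 10.2 to 15.9 CPM over the type I sums (log2 0.88 ± 0.18, adjusted p = 0.000358); it was higher in 4 of 4 mice, and by 0.94 without the cells rich in Fabp7. Rab14, Rab22a, Rab25, Rab35 and Rab4b were called nowhere, Rab14 being the steadiest abundant member with means of 199 to 210 CPM. Rab17, an epithelial Rab, had 44 UMIs, none of them in type II, which allows up to 2.33 CPM there.

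Of 8 tested late endosome and lysosome Rabs 2 were called between IA and IC (25%, against 32.3% of all genes). Rab12 alone was higher in IA than in IC (log2 0.29 ± 0.11, adjusted p = 0.0367) and Rab36 alone lower (-0.57 ± 0.19, adjusted p = 0.0158), with no call between IA and IB, IB and IC, or in putative neurons. Rab7, which directs late endosomes to lysosomes, read 210, 159, 231 and 150 CPM in type II and 144 to 162 over the type I sums (log2 0.33 ± 0.11, adjusted p = 0.0155). Mice 1, 2 and 3 lay above their type I mean on the CPM scale, mouse 2 within the type I range. Rab9, of retrieval from late endosomes to the Golgi, read 93.3, 106, 56.4 and 54.5 CPM in type II (log2 0.46 ± 0.16, adjusted p = 0.0264). Rab24, associated with autophagy, was lower there, with 192, 159, 156 and 155 CPM against 189 to 219 CPM in type I (log2 -0.31 ± 0.10, adjusted p = 0.0226). Without the cells rich in Fabp7 none of the 3 was called, at log2 differences of 0.29 for Rab7 (adjusted p = 0.113), 0.36 for Rab9 (0.230) and -0.32 for Rab24 (0.102). Rab29, Rab34 and Rab9b were called nowhere, and Rab7b and the melanosome Rabs Rab32 and Rab38 were not tested.

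In the secretory pathway 7 of 16 tested members were higher in IA than in IC and none was lower, where 16.3% of all genes were higher and 16.0% lower. They were Rab33b (log2 0.30 ± 0.09), Rab1a (0.28 ± 0.05), Rab2b (0.24 ± 0.07), Rab6a (0.19 ± 0.06), Rab10 (0.17 ± 0.05), Rab18 (0.16 ± 0.06) and Rab33a (0.16 ± 0.05), which together serve the endoplasmic reticulum, the Golgi and traffic to the cell surface. Rab6a, the most abundant of them, read 444, 493, 438 and 439 CPM in IA and 405, 431, 387 and 393 in IC, higher in IA in 4 of 4 mice without overlap. Of the 7, Rab1a alone was called in every analysis that left out a mouse or the replicate block or used DESeq2; all other calls were lost in at least 1 of these. Rab33b was also higher in IA than in IB (0.36 ± 0.10). Between IB and IC, Rab1a (0.18 ± 0.05) and Rab6b (0.20 ± 0.07) were higher in IB.

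Rab33a, a Golgi Rab with a neuronal role in axonal vesicle traffic, was the only member called in all 5 comparisons and did not follow the IA to IC gradient. It lies at chrX:48519285-48530232, just after the first sequence printed above. It read 135, 147, 129 and 102 CPM in IA, 94.0, 121, 85.4 and 80.7 in IB and 111, 142, 110 and 105 in IC, so that IB was lowest in every mouse (log2 0.44 ± 0.06 for IA against IB, adjusted p = 1.09e-08; -0.29 ± 0.06 for IB against IC, adjusted p = 0.000144). Type II read 82.3, 76.0, 66.6 and 63.6 CPM, lower than type I in 4 of 4 mice (-0.64 ± 0.15, adjusted p = 0.000886). Putative neurons read 79.4, 95.5, 88.6 and 54.6 CPM (-0.34 ± 0.10, adjusted p = 0.0112), a call lost without mouse 1, 2 or 4 and without the cells rich in Fabp7 (adjusted p = 0.0589).

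Rab6b, the brain-enriched form of Rab6, and Rab30, another Golgi Rab, were also lower in type II. Rab6b read 390, 205, 228 and 236 CPM in type II against means of 362, 406 and 357 CPM in IA, IB and IC; mouse 1 stood within the type I range and the other 3 below it (log2 -0.47 ± 0.10, adjusted p = 0.000328). Without mouse 1 the difference was -0.81, and among the Prph-positive cells it was -1.13. Rab30 read 25.6, 7.59, 28.2 and 4.54 CPM in type II from 27 UMIs, below every type I sum (34.5 to 43.5; log2 -0.97 ± 0.29, adjusted p = 0.009); without the cells rich in Fabp7 it was -0.83 (adjusted p = 0.0634), and among the Prph-positive cells -1.90. In the Prph-positive cells Rab33a likewise read -1.33.

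Rab13, of tight junctions and transport to the plasma membrane, went the opposite way. It read 23.8, 30.4, 25.6 and 36.4 CPM in type II and 7.46 to 9.82 CPM over the type I sums, with no overlap (log2 1.59 ± 0.30, adjusted p = 2.82e-05). The type II level rests on 35 UMIs in 24 cells. Without the cells rich in Fabp7 the difference was 1.41 (adjusted p = 0.00338), and among Prph-positive cells 1.47 (0.00717). Putative neurons read 6.97, 20.0, 16.0 and 15.0 CPM and were not called. Rab1b, Rab2a, Rab39b, Rab43, Rab8a and Rab8b were called nowhere; Rab19 and Rab39 were not tested.

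**Figure D5:**
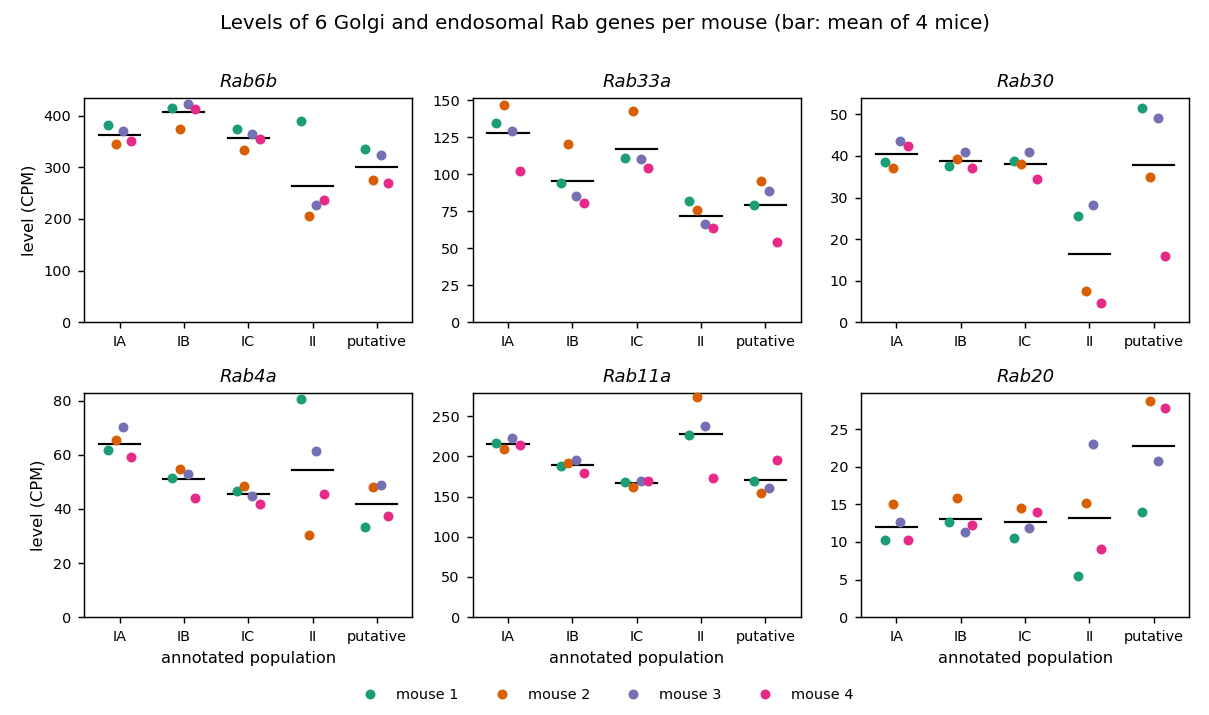
Level in CPM (vertical axes, each from 0) of 6 Golgi and endosomal Rab genes in the 5 populations; each point is a mouse and each bar the mean of 4. Rab6b, Rab33a and Rab30 have their lowest mean in type II, except that Rab33a is near it in putative neurons (79.5 against 72.1 CPM), and Rab4a and Rab11a step down from IA to IC.

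Among the remaining 6 Rabs, Rab28, a Rab of photoreceptor cilia, was higher in type II, with 87.8, 106, 118 and 105 CPM above every type I value (63.3 to 85.7; log2 0.46 ± 0.14, adjusted p = 0.0131). It was also higher in IA than in IC (0.24 ± 0.06) and IB (0.18 ± 0.06). Without the cells rich in Fabp7 the type II difference was 0.28 and not called. Rab42, a little studied member, read 3.66, 15.2, 7.68 and 9.09 CPM in type II from 9 UMIs in 9 cells, and 0 to 1.01 CPM over the type I sums (log2 3.61 ± 0.73, adjusted p = 0.000105); 7 of those UMIs lay in Prph-positive cells. Rab42 passed the low count filter only through type II, where it is high, so its being tested was not independent of that level. With no filter it was called as well. Rab40c was lower in IA than in IC (-0.31 ± 0.10). Rab23 and Rab40b were called nowhere, and Rab44, with 3 UMIs, was the rarest member.

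Several counts fell when 1 animal was left out, as did the share of all genes called. Leaving out mouse 3 lowered the members called from 13 to 8 in type II, from 22 to 11 between IA and IC and from 6 to 2 between IB and IC. The share of all genes called fell with them, from 23.4% to 16.7%, from 32.3% to 23.8% and from 11.8% to 7.26%. In putative neurons the 7 calls fell to 2 without mouse 1 and to 3 without mouse 2 or mouse 4. There 12.6%, 8.51% and 9.29% of all genes were called, against 13.7% with all mice. In type II the calls of Rab21, Rab24, Rab28, Rab5c and Rab7 were lost without mouse 3 (adjusted p 0.125 to 0.265), those of Rab21, Rab7 and Rab9 without mouse 1 (0.183 to 0.456), those of Rab24, Rab5c and Rab9 without mouse 2 (0.0590 to 0.0921) and those of Rab24, Rab28 and Rab5c without mouse 4 (0.0519 to 0.0954). Between IA and IC, 4 calls were lost without mouse 1 (adjusted p 0.0515 to 0.221), 8 without mouse 2 (0.0519 to 0.718), 11 without mouse 3 (0.0601 to 0.217) and 3 without mouse 4 (0.0542 to 0.234); those of Rab15, Rab37, Rab4a, Rab11a, Rab11b, Rab1a, Rab5a and Rab31 were never among them. Between IA and IB, Rab28 and Rab33b were lost without mouse 1 (0.0504 to 0.0891), Rab33b and Rab5a without mouse 2 (0.0683 to 0.142), and Rab11a, Rab28 and Rab5a without mouse 3 (0.0574 to 0.309). Between IB and IC, Rab11a, Rab1a, Rab5b and Rab6b were lost without mouse 3 (0.136 to 0.402), Rab1a and Rab5b without mouse 1 (0.0748 to 0.125), and Rab11a, Rab5b and Rab6b without mouse 2 (0.1203 to 0.149). In putative neurons, Rab20 and Rab27b were called whichever mouse was left out, and each of the other 5 calls was lost without at least 2 of the mice in turn (adjusted p 0.0510 to 0.375). With cells rich in Fabp7 left out, 6 members were called in type II and 5 in putative neurons, beside 14.6% and 9.73% of all genes.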

How the data were processed

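Single-cell counts of 4 libraries (1 mouse each) were used with the authors' annotation. The deposited counts are whole UMIs per gene and cell, not normalized; per the submitters' processing notes Cell Ranger 2.0.1 and Seurat 1.4 were used on mm10. The sources used here do not say what each tool did or whether counting used strand; 13 members overlap a counted gene on the opposite strand. The deposited annotation gave each cell's mouse and population; no doublet caller was run. A marker of the satellite glia list is not reported here and was left out of its sums. The authors' normalized and combined tables were not used here.

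UMIs were summed per mouse and population (20 sums) and tested in 1 fit with edgeR 4.0.16 (R 4.3.3): TMM scaling, filterByExpr, quasi-likelihood F test, two-sided, Benjamini-Hochberg over 13005 genes. The mouse was a block, since each mouse gave every population; deviations of same-mouse sums correlated at 0.0130 to 0.573 (median 0.168, 40 pairs, across genes). DESeq2 1.42.0 was an alternative, beside RLE scaling, no filter, no replicate block, each mouse left out, cells with 3 or more Fabp7 UMIs left out, 15 cells in every sum, and type II cells without a Prph UMI left out. The scripts were tested on simulated data. Values in every mouse are given for members called with an absolute log2 difference of at least 1 and 20 UMIs in the higher population, and for Rab3a, Rab3b, Rab3c, Rab3d, Rab27a and Rab27b; other members printed per mouse were chosen after their values were seen. Regulators were named by size of difference, up to 4 per comparison. Members and lists were chosen with earlier results of these data known. Standard errors of log2 differences were derived from the test, as the absolute difference over the square root of its quasi-likelihood F. They are therefore approximate. The F comes from the fit of all 20 sums, with the spread between sums moderated across genes. That fit had 12 residual degrees of freedom and a median of 36.5 prior ones. SDs of levels cover the spread between mice, and limits at 0 counting error only.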

Additional observations from a re-analysis of the deposited data

Results flagged for a closer look

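Of 45 groups of 4 mice checked (9 members in 5 populations), 6 held a mouse far from the other 3, where chance alone marks about 1 group in 20. That rate does not hold where a gene was counted in a single mouse, as Rab27a and Rab3d were in type II: such a group is marked at any level. In type IB, mouse 4 had the lowest Rab3a level, 931 CPM against 1102 to 1129 in the others, and it was also lowest in putative neurons, 642 CPM against 877 to 918. Rab27a stood at 3.66 CPM in type II of mouse 1 and at 0 in the other mice, from 2 UMIs in all. In putative neurons it stood at 4.28 CPM in mouse 4 against 1.39 to 1.89. Rab3b in type IA read 0.879 CPM in mouse 3 against 0.579 to 0.625, and Rab3d in type II read 1.83 CPM in mouse 1, its single UMI there, against 0.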

How the results depend on the processing

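Of 57 member calls, 11 kept direction and call under every alternative that could be fitted: Rab13, Rab33a, Rab3a, Rab42 and Rab6b in type II, Rab15, Rab31 and Rab37 between IA and IC, Rab37 between IA and IB, and Rab20 and Rab27b in putative neurons. Of these, only Rab33a, Rab3a, Rab6b and Rab15 could be tested with 15 cells in every sum, the setting that lost most calls. The others were too low to be tested there, and Rab42 passed the low count filter only through type II. Over all alternatives 400 of 565 values kept direction and call, 162 lost the call and 3 changed direction, and 62 more gave no value. Those without a value include every call outside the type II comparison under the Prph alternative, which covered type II against type I alone. Without the replicate block, 9 members were called between IA and IC (22 with it), 4 between IA and IB (9), 1 between IB and IC (6) and 3 in putative neurons (7). The share of all genes called fell as well, to 18.1%, 6.93%, 4.58% and 10.8% in that order. With 15 cells in every sum, and so fewer genes tested, 6 were called in type II, 1 between IA and IC, and 0 in each of the other 3 comparisons. In that setting 29.2% of the 4113 genes tested were called in type II and 3.89% between IA and IC. The shares were 0.851% between IA and IB, 0.584% between IB and IC and 4.18% in putative neurons. The 3 reversals arose there: Rab18 (-0.0624) and Rab5c (0.0287) between IA and IC, and Rab11a (0.0164) in putative neurons, none called. Without the cells rich in Fabp7, 6 were called in type II, beside 14.6% of all genes. Leaving out 1 mouse gave 8 to 12 calls in type II, 11 to 20 between IA and IC, 6 to 9 between IA and IB, 2 to 7 between IB and IC, and 2 to 6 in putative neurons. The shares of all genes in these fits were 16.7% to 21.9%, 23.8% to 28.9%, 10.3% to 13.4%, 7.26% to 10.7% and 8.51% to 12.6%. DESeq2 moved the share of all calls in type II that were higher from 50.8% to 61.9%; it called 13 members there. Type II sums are the shallowest (131668 UMIs at least), which limits every rare member.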
